A study of Brassica napus with 10 samples.

Results

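Among the 7 libraries of sorted embryogenic structures from 3-day-old *Brassica napus* cultures, 2 sets can be told apart by their expression across genes. Set 1 held HS + TSAlow libraries 1 and 4 and HS + TSAhigh library 1. Set 2 held HS + TSAlow libraries 2 and 3 and HS + TSAhigh libraries 2 and 3. These are 3 and 4 of the 10 libraries of the series, and the other 3 were pollen libraries, used only as a point of reference. The sets were chosen from the correlations between these libraries, over the same genes that are described here, and they are not groups of the study. Every difference between them is therefore given as a description with no test. No label or protocol names anything that the libraries of a set share beyond the treatment.

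All cultures carried the pLEC1:LEC1-GFP embryo identity reporter in the DH12075 background. HS + TSA cultures were kept at 33 °C for 24 h together with trichostatin A (TSA), which inhibits histone deacetylases, and were then moved to 25 °C. The TSA dose was 0.05 µM in HS + TSAlow (4 libraries) and 0.5 µM in HS + TSAhigh (3 libraries). GFP-positive structures were collected by fluorescence-activated sorting and pooled to 150000 cells per library, so that each library is a mixture of many structures. Pollen came from cultures held at 18 °C and was not sorted. Sorting, heat, TSA and cell type therefore cannot be told apart in any comparison with pollen. Total counts were 51838498 to 67884748 in set 1, 58468526 to 63621335 in set 2 and 93367646 to 109105528 in pollen. Levels are CPM, counts scaled to a common library size by TMM, and so relative to the whole library. Fewer cells of a type and less RNA per cell cannot be told apart in them.

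*B. napus* is an allotetraploid. Its A and C subgenomes come from relatives of *B. rapa* and *B. oleracea*, and most genes have a homoeologous copy on the other subgenome. Homoeologous copies are similar in sequence, so a read that fits both can be lost or assigned to either, and counts of genes with a near-identical copy are uncertain. Gene positions below are those of the Darmor-bzh version 10 annotation. Of its gene IDs, 0 matched the gene table at hand, and names are known only for the ER stress genes listed by the study. LEC1 itself was not analysed here.

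The structure that chose the sets was plain in both doses. HS + TSAlow libraries 1 and 4 correlated by r = 0.98 over log2 CPM of 43760 genes, and libraries 2 and 3 by 0.93. HS + TSAlow libraries of different sets correlated by 0.89 to 0.90. Within HS + TSAhigh, libraries 2 and 3 correlated by 0.93 and library 1 correlated with them by 0.88 and 0.86. The dose mean was next subtracted from each gene. The deviations of HS + TSAhigh 1 then correlated with those of HS + TSAlow 1 and 4 by 0.35 and 0.32, and with those of HS + TSAlow 2 and 3 by -0.26 and -0.32. A principal component analysis put 40.6% of the variance on a first component and 27.0% on a second. The first parted the doses, with HS + TSAlow at -153 to -34 and HS + TSAhigh at 52 to 189. The sets parted on the second, with set 1 at 48 to 175 and set 2 at -136 to -8.

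**Figure D1:**
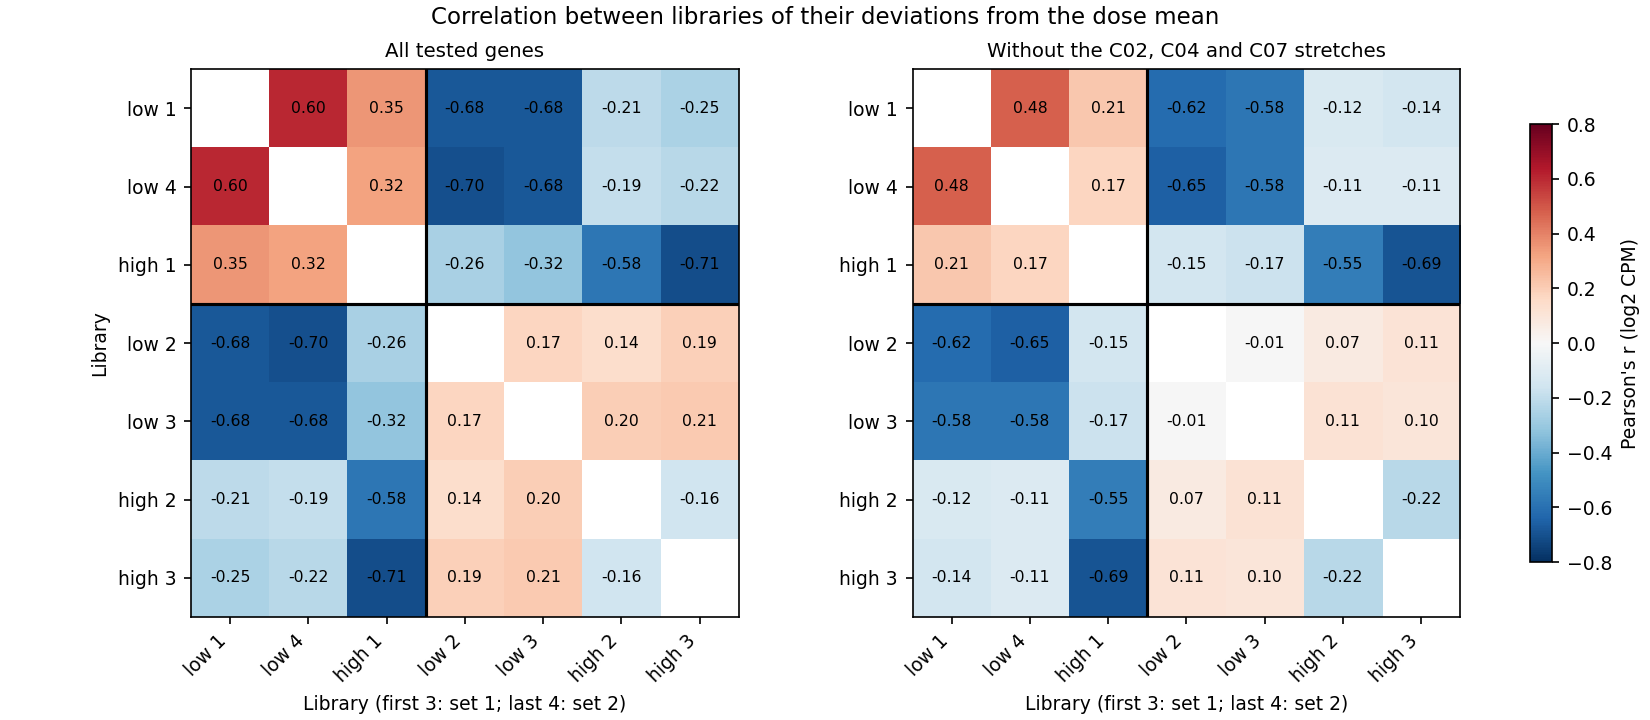
Pearson's r between the 7 HS + TSA libraries of their deviations from the dose mean (log2 CPM), over all 43760 tested genes on the left and without the genes of 3 chromosome stretches on the right. The first 3 rows and columns are set 1 and the last 4 are set 2. Between the doses, pairs within a set reach 0.14 to 0.35 over all genes and pairs across sets -0.32 to -0.19. Pairs within a dose are pushed towards negative values by the subtraction of their shared mean.

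A gene was called higher or lower in set 1 when its fitted difference was at least 2-fold, with TSA dose in the model, and when every set 1 library lay beyond every set 2 library of the same dose. By this rule 1162 genes were higher in set 1 and 3613 were lower, 2.66% and 8.26% of the 43760 genes tested. The library order alone, with no fold asked, held for 5532 higher genes (12.6%) and 6910 lower genes (15.8%). The genes nearest the fold limit lay on both sides of it. Within 0.1 log2 units of the limit there were 203 higher genes inside and 273 outside, and 275 lower genes inside and 328 outside. Larger differences were mostly on the lower side. A difference of at least 3 log2 units was reached by 95 higher genes, none of them in the stretches described next, and by 846 lower genes, 443 of them in those stretches. Leaving out HS + TSAlow 2 or HS + TSAhigh 1 moved these counts by more than 1.5 times. Without HS + TSAlow 2, 1941 genes were higher, and without HS + TSAhigh 1, which leaves only HS + TSAlow libraries to be ordered, 2498 were higher and 5622 lower.

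Many genes nearly without RNA in set 1 lay together in 3 contiguous stretches of C-subgenome chromosomes, where other genes kept part of their level. A gene was called near-absent in set 1 when its highest set 1 level was at most 0.1 of its lowest set 2 level and its set 2 mean was at least 1 CPM. There were 299 such genes, and 273 of them lay in the 3 stretches. No gene was near-absent in set 2 by the reverse rule, out of 43760 tested. The stretches were found by a rule chosen after seeing the data, as runs of 20 neighbouring expressed genes of which a share of at least 0.2 was near-absent. Runs on the same chromosome were joined where the gap held fewer expressed genes than 2 runs of 20. The stretches lie on chromosome C02 from 46497879 to 62270109, on C04 from 244460 to 6546682 and on C07 from 45724184 to 47184632. They span 15.8, 6.30 and 1.46 Mb. The C02 stretch runs to the end of the chromosome but for its last 4 expressed genes, the C04 stretch begins at the first expressed gene, and the C07 stretch is internal.

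The stretches hold 877 tested genes, of which 586 were called lower in set 1 and 7 higher. In the C02 stretch 326 of 490 tested genes were called lower (66.5%), in the C04 stretch 180 of 289 (62.3%) and in the C07 stretch 80 of 98 (81.6%). The share over all genes was 8.26%, and outside the stretches it was 7.06% (3027 of 42883). The stretches were chosen for their near-absent genes, 273 of the 877. The excess of lower calls, like the low set 1 levels given below, is thus in part built into that choice. The edge on C02 was read in windows of 40 expressed genes, which cannot place it to a few genes, and the rule itself starts a stretch at a near-absent gene. There, the window of 40 expressed genes that ends just before the stretch had a median difference of -0.20 at the low dose and 0.01 at the high dose, on the log2(CPM + 1) scale. The windows within the C02 stretch ran from -2.89 to -0.93 at the low dose and from -1.74 to -0.57 at the high dose. Of the 907 windows of 40 genes that touch no stretch, the lowest median was -0.54 at the low dose and -0.44 at the high dose.

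**Figure D2:**
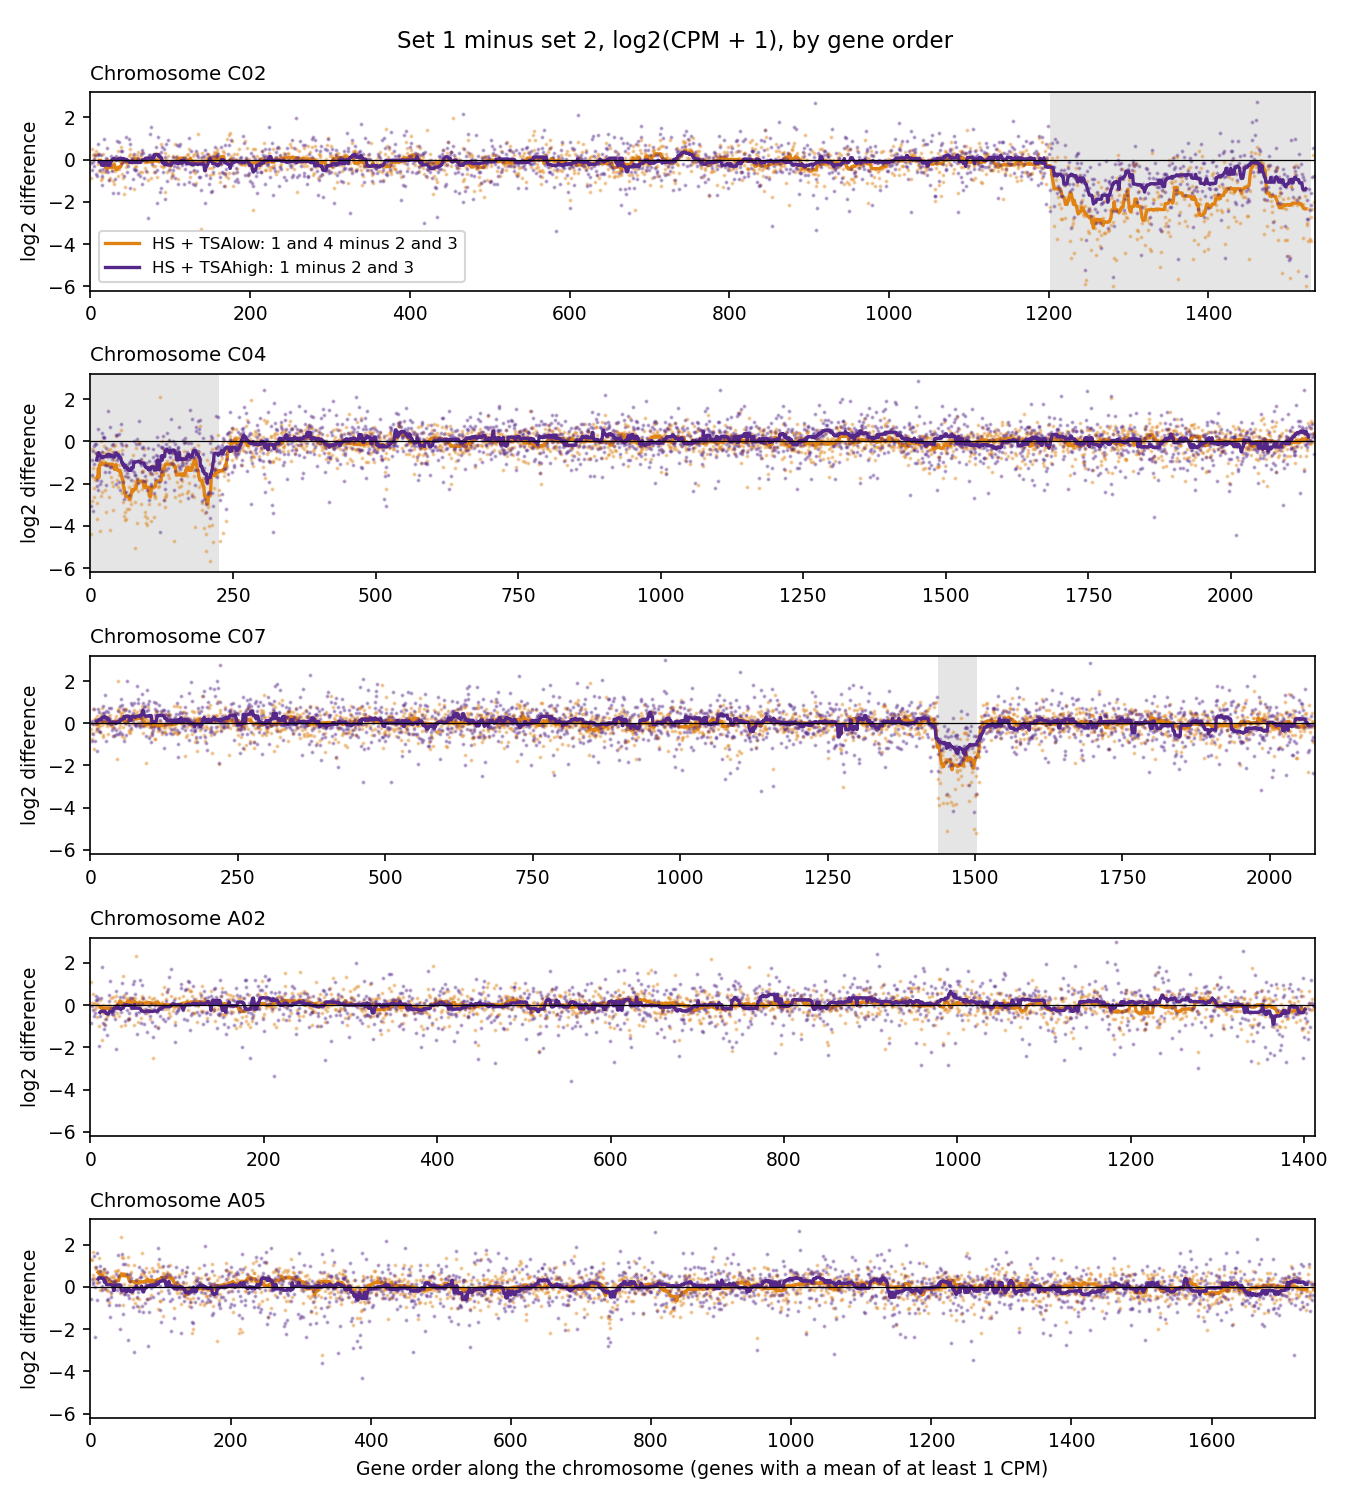
Set 1 minus set 2 in log2(CPM + 1), gene by gene, in the order of the genes along chromosomes C02, C04, C07, A02 and A05, for genes with a mean of at least 1 CPM. Orange is HS + TSAlow (libraries 1 and 4 minus 2 and 3), purple is HS + TSAhigh (library 1 minus 2 and 3), points are genes with values beyond -6 or 3 drawn at those limits, lines are running medians of 21 genes, and grey marks the stretches. Both doses are lower within the same stretches of gene order on C02, C04 and C07, and on A02 the windows of 40 genes go no lower than -0.29 at the low dose and -0.31 at the high dose, both near its end.

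Summed over all tested genes, the C02 stretch had 1297, 1222 and 1326 CPM in HS + TSAlow 1, HS + TSAlow 4 and HS + TSAhigh 1, against 4310, 6393, 2297 and 2870 CPM in HS + TSAlow 2, HS + TSAlow 3, HS + TSAhigh 2 and HS + TSAhigh 3. The C04 stretch had 1255, 1031 and 942 CPM in the same set 1 libraries, against 2865, 4626, 1510 and 1719 CPM in the same set 2 libraries. The C07 stretch had 183, 147 and 126 CPM in set 1, against 662, 1071, 305 and 430 CPM in set 2. The sums did not overlap at either dose.

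The level of the stretches was also read in each library against the mean of the pollen libraries, over 350 stretch genes with at least 5 CPM in pollen. The median log2 difference was -2.59 and -2.61 in HS + TSAlow 1 and 4 and -2.68 in HS + TSAhigh 1. In set 2 it was -0.46 and 0.14 in HS + TSAlow 2 and 3, and -1.45 and -1.16 in HS + TSAhigh 2 and 3. The 3 set 1 libraries thus lay together below all set 2 libraries, and within set 2 the HS + TSAhigh libraries lay below the HS + TSAlow libraries. Pollen 1 had a median of -0.27, below 0.19 in pollen 2 and 0.09 in pollen 3. Over 12065 other C-subgenome genes the medians ran from -0.21 to -0.18 in set 1 and from -0.31 to -0.27 in set 2. A pseudocount of 1 was added to the CPM, and these values understate the differences of genes near 0.

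Many stretch genes had no counts at all in set 1. Of the 350 genes, 79, 84 and 109 had 0 counts in HS + TSAlow 1, HS + TSAlow 4 and HS + TSAhigh 1 (22.6 to 31.1%). In set 2 the numbers were 0 and 0 in HS + TSAlow 2 and 3 and 5 and 1 in HS + TSAhigh 2 and 3. The share with 0 counts among the other C-subgenome genes was at most 0.489% in any of the 7 libraries. Over all tested genes, 315 had 0 counts in every set 1 library, and 228 of these lay in the stretches. Only 6 genes had 0 counts in every set 2 library, all of them outside the stretches.

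The 3 stretches kept the same order of libraries. In the C02 stretch (186 genes) the medians were -2.61, -2.64 and -2.70 in HS + TSAlow 1, HS + TSAlow 4 and HS + TSAhigh 1, against -0.48, 0.17, -1.51 and -1.20 in HS + TSAlow 2, HS + TSAlow 3, HS + TSAhigh 2 and HS + TSAhigh 3. In the C04 stretch (131 genes) they were -2.51, -2.51 and -2.55 in the same set 1 libraries, against -0.43, 0.04, -1.38 and -1.19 in the same set 2 libraries. In the C07 stretch (33 genes) they were -2.56, -2.56 and -2.72 in set 1, against -0.49, 0.36, -1.65 and -0.83 in set 2. In each stretch HS + TSAlow 3 was the highest of the 7 libraries, followed by HS + TSAlow 2, HS + TSAhigh 3 and HS + TSAhigh 2. Pollen 1 was the lowest pollen library in each stretch, at -0.30, -0.24 and -0.30.

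**Figure D3:**
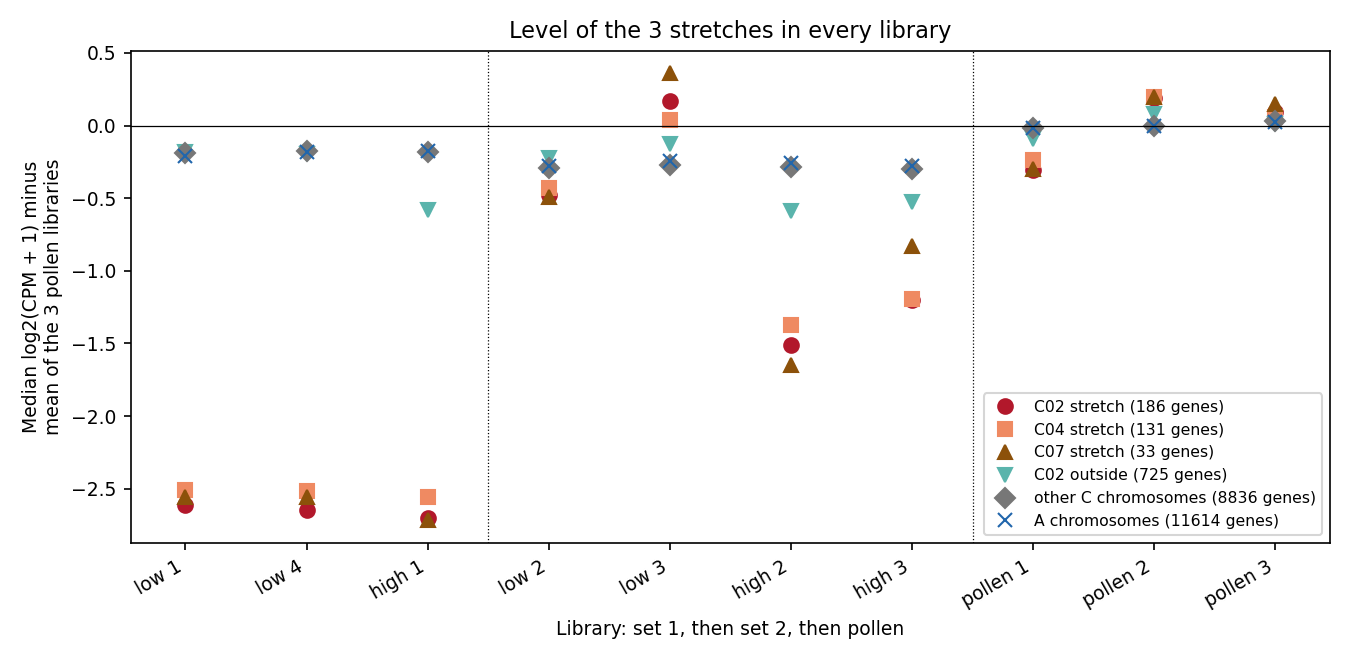
Median log2(CPM + 1) of each library minus the mean of the 3 pollen libraries, for the 3 stretches, the rest of C02, the 6 other C chromosomes and the A chromosomes, over genes with at least 5 CPM in pollen. Set 1 libraries stand left, set 2 libraries in the middle and pollen libraries right. The stretches lie between -2.72 and -2.51 in set 1 and between -1.65 and 0.36 in set 2, while the A chromosomes lie between -0.28 and -0.18 in both sets.

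Not every gene of the stretches was lost from set 1. Among 532 stretch genes with a set 2 mean of at least 1 CPM at each dose, 251 (47.2%) had at most 10% of the set 2 level at both doses and 86 (16.2%) kept at least 50% at both. The remaining 195 fell between these limits. The C04 stretch kept the most, with 42 of 204 genes (20.6%) at 50% or more, against 39 of 273 (14.3%) in the C02 stretch and 5 of 55 (9.09%) in the C07 stretch. Outside the stretches, 46 of 34086 genes (0.135%) had at most 10% and 28303 (83.0%) kept at least 50%.

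The remainder of C02 had levels that went with the dose more than with the set. Of its 1513 tested genes outside the stretch, 18.8% were lower in set 1 by library order and 7.60% higher, beside 14.7% and 12.9% of all genes outside the stretches, and the median fitted difference was -0.12. Over 725 genes of C02 outside the stretch, the median against pollen was -0.18 and -0.19 in HS + TSAlow 1 and 4 and -0.58 in HS + TSAhigh 1. In set 2 it was -0.22 and -0.13 in HS + TSAlow 2 and 3 and -0.59 and -0.53 in HS + TSAhigh 2 and 3. All 3 HS + TSAhigh libraries thus lay below all 4 HS + TSAlow libraries. On the A subgenome, A02 is largely collinear with C02. Its genes had medians of -0.19 to -0.18 in set 1 and -0.33 to -0.27 in set 2, and those of A05 had -0.15 to -0.13 in set 1 and -0.27 to -0.22 in set 2. The window of A02 with the lowest medians, from 32504523 to 33097161, had -0.29 at the low dose and -0.31 at the high dose. Which A-subgenome gene pairs with which stretch gene is not given in the sources used here, and the homoeologous copies were not compared gene by gene.

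Smaller regional differences, chosen after their values were seen, stood at the starts of A07 and A05. The first 4 windows of A07, up to 3901327, had medians of -0.51, -0.54, -0.39 and -0.49 for HS + TSAlow 1 and 4 minus 2 and 3, and of 0.06, 0.24, 0.11 and -0.09 for HS + TSAhigh 1 minus 2 and 3. Against pollen, 102 genes there lay at -0.94 and -0.91 in HS + TSAlow 1 and 4, at -0.71 and -0.31 in HS + TSAlow 2 and 3, and at -0.14 in HS + TSAhigh 1, against -0.26 and -0.32 in HS + TSAhigh 2 and 3. Set 1 was thus the lower one at the low dose only. The first 3 windows of A05, up to 1418931, had medians of 0.46, 0.30 and 0.36 at the low dose and of 0.23, -0.14 and 0.06 at the high dose. Against pollen, 87 genes there lay at -0.09 and -0.07 in HS + TSAlow 1 and 4, against -0.45 and -0.73 in HS + TSAlow 2 and 3, and at -0.09 in HS + TSAhigh 1, against -0.19 and -0.29 in HS + TSAhigh 2 and 3. Set 1 was thus higher in each of these windows at the low dose, and at the high dose the windows differed in direction.

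The 2 called IDs with the largest lower differences among genes with at least 10 CPM both lay in the C02 stretch. C02p64550.1_BnaDAR (C02, 61934460 to 61936854, 1 exon) had 0 counts in all 3 set 1 libraries, against 169 and 98.1 CPM in HS + TSAlow 2 and 3 and 44.2 CPM in each of HS + TSAhigh 2 and 3. It had 0.41, 0.18 and 0.52 CPM in pollen 1, 2 and 3, so it was near 0 there as well. Against a floor of 3 read pairs, or 6 counts, over the pooled set 1 libraries, it was at least 2657-fold lower in set 1. C02p62890.1_BnaDAR (C02, 60826821 to 60829925, 3 exons) also had 0 counts in all 3 set 1 libraries, against 25.9 and 62.5 CPM in HS + TSAlow 2 and 3 and at most 1.32 CPM in HS + TSAhigh 2 and 3. It was present in pollen at 19.4 to 34.2 CPM. By the same floor it was at least 663-fold lower in set 1 with both doses pooled, a bound that rests on HS + TSAlow 2 and 3. These bounds pool the doses within each set, although the sets hold them in different shares, and cover counting error only.

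The 2 called IDs with the largest higher differences among genes with at least 10 CPM lay outside the stretches and were present in both sets. C05p20330.1_BnaDAR (C05, 12484965 to 12486346, 6 exons) had 66.2, 62.9 and 7.78 CPM in HS + TSAlow 1, HS + TSAlow 4 and HS + TSAhigh 1, against 20.2, 18.6, 2.13 and 1.05 CPM in HS + TSAlow 2, HS + TSAlow 3, HS + TSAhigh 2 and HS + TSAhigh 3. Its fitted difference was 1.95 on the log2 scale (SE 0.24), and the sets did not overlap at either dose. C07p01460.1_BnaDAR (C07, 1999120 to 2000040, 1 exon) had 37.5 and 31.6 CPM in HS + TSAlow 1 and 4, against 3.77 and 15.1 CPM in HS + TSAlow 2 and 3, and at most 0.142 CPM in any HS + TSAhigh library. Its fitted difference of 1.99 (SE 0.53) thus rested on the low dose, and it was 3.16 without HS + TSAlow 3. It had 63.9, 111 and 27.9 CPM in pollen.

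Outside the stretches, genes far higher in HS + TSAhigh 2 and 3 than in pollen were lower in set 1 more often than other genes were. Embryogenic-rich genes were those for which the lower of HS + TSAhigh 2 and 3 was at least 10 times the highest pollen library, and pollen-rich genes the reverse, both with a mean of at least 10 CPM. These lists used set 2 and pollen libraries. HS + TSAlow and HS + TSAhigh 1 did not choose them, but HS + TSAlow 2 and 3 share a set with the libraries that did. The embryogenic-rich list thus favours genes high in set 2, and a lower level in set 1 is in part built into it. The 1777 embryogenic-rich genes outside the stretches summed to 53855, 53273 and 60146 CPM in HS + TSAlow 1, HS + TSAlow 4 and HS + TSAhigh 1. They summed to 92950 and 87562 CPM in HS + TSAlow 2 and 3, and to 104609 and 128197 CPM in HS + TSAhigh 2 and 3, which chose the list. In pollen the sum was 1758 to 2017 CPM. All 7 libraries therefore stood far above pollen, and all 3 set 1 libraries stood below the other HS + TSAlow libraries.

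Gene by gene, the same list was lower in HS + TSAlow 1 and 4 than in HS + TSAlow 2 and 3, with a median log2(CPM + 1) difference of -0.60 and a middle range of -1.10 to -0.17. Both set 1 libraries lay below both set 2 libraries for 1217 of the 1777 genes (68.5%) and above them for 169 (9.51%). Over all 42883 tested genes outside the stretches the median was -0.01, and the shares were 29.1% and 27.2%. By the rule for both doses, 706 of the 1777 genes were called lower in set 1 (39.7%) and 4 higher (0.225%). The shares of all genes outside the stretches were 7.06% and 2.69%. That count also rests on HS + TSAhigh 2 and 3, which chose the list, and most calls outside the stretches, 1120 of 1155 higher and 2312 of 3027 lower, fell in neither list.

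The summed level of pollen-rich genes overlapped between the sets. The 263 pollen-rich genes outside the stretches summed to 6694, 5955 and 578 CPM in HS + TSAlow 1, HS + TSAlow 4 and HS + TSAhigh 1, against 4996, 10362, 982 and 304 CPM in HS + TSAlow 2, HS + TSAlow 3, HS + TSAhigh 2 and HS + TSAhigh 3. In pollen they summed to 24429, 43671 and 25170 CPM. Set 1 libraries thus lay within the range of set 2 libraries at each dose, and the low dose lay above the high dose in both sets. Gene by gene, the median difference of HS + TSAlow 1 and 4 over 2 and 3 was 0.15. Both set 1 libraries lay above both set 2 libraries for 35.4% of these genes and below them for 22.4%, beside 27.2% and 29.1% of all genes outside the stretches. By the rule for both doses, 31 of the 259 tested were called higher in set 1 (12.0%) and 9 lower (3.47%), beside 2.69% and 7.06% of all genes outside the stretches. These calls rest in part on HS + TSAhigh 2 and 3, which chose the list for low values.

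**Figure D4:**
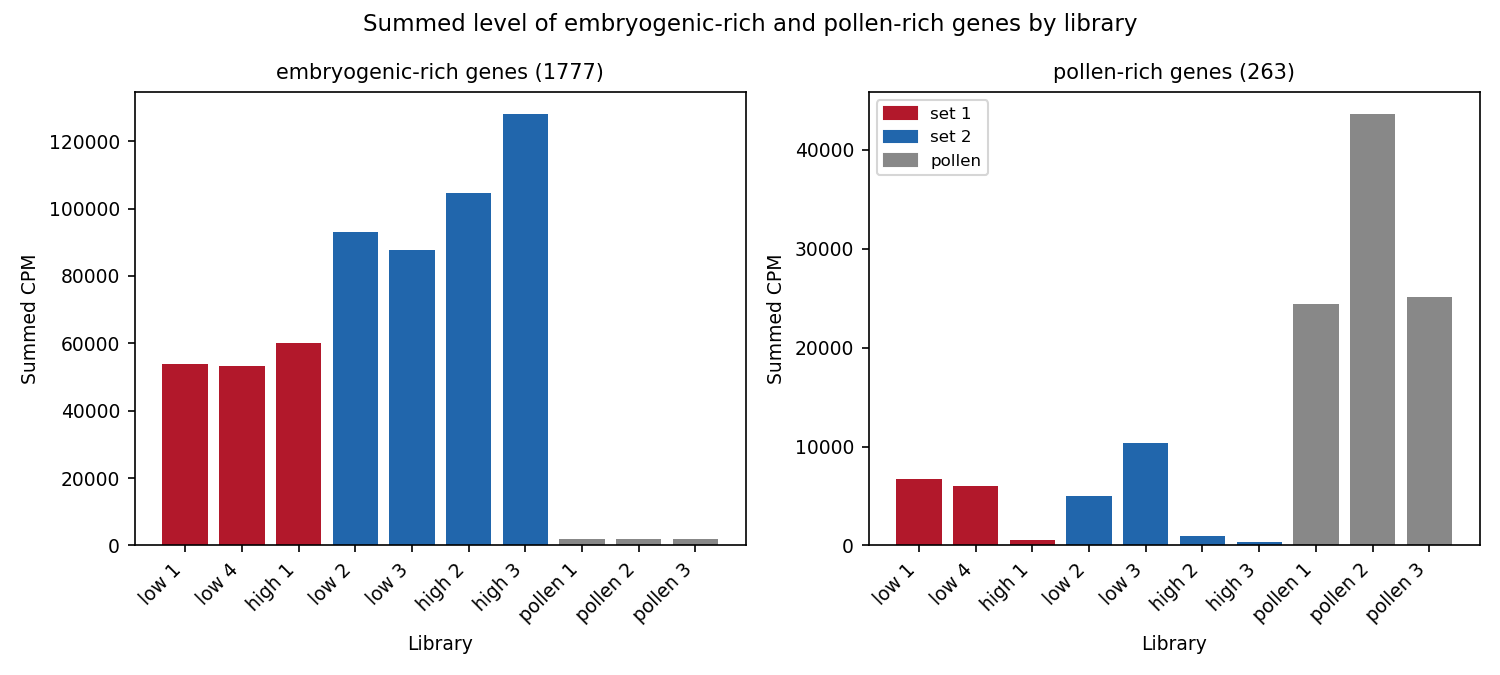
Summed CPM of 1777 embryogenic-rich genes (left) and 263 pollen-rich genes (right) in each library, without the genes of the 3 stretches. Bars are single libraries, with set 1 in red, set 2 in blue and pollen in grey. Embryogenic-rich sums are 53273 to 60146 CPM in set 1 and 87562 and 92950 CPM in the HS + TSAlow libraries of set 2. HS + TSAhigh 2 and 3, of set 2, chose both lists. That choice sets their bars in part and favours lower embryogenic-rich sums in set 1. Pollen-rich sums overlap between the sets at each dose.

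The place of pollen was also read in other libraries than the set difference, though not in libraries independent of the sets. For this the sets were compared in HS + TSAlow alone, outside the stretches, and pollen was compared with HS + TSAhigh 2 and 3. Of 2998 genes that were at least 2-fold lower in HS + TSAlow 1 and 4, pollen was also lower by at least 2-fold with no overlap for 1773 (59.1%) and higher for 230 (7.67%). Of 1377 genes that were higher in HS + TSAlow 1 and 4, pollen was higher for 323 (23.5%) and lower for 204 (14.8%). Over all 38052 genes read in this way, pollen was higher for 13.6% and lower for 22.0%. The 2 comparisons share no library, but HS + TSAhigh 2 and 3 belong to set 2, which was chosen from correlations. Their deviations correlated with those of HS + TSAlow 2 and 3 by 0.14 to 0.21. Genes lower in HS + TSAlow 1 and 4 thus tend to be high in HS + TSAhigh 2 and 3, which favours pollen being lower. These shares are therefore no independent reading of pollen.

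The difference between the sets did not end with the stretches or with these lists. Without the stretch genes, the deviations of HS + TSAhigh 1 correlated with those of HS + TSAlow 1 and 4 by 0.21 and 0.17. Without the embryogenic-rich and pollen-rich genes as well, these values were 0.19 and 0.15. Set 2 held together less. Without the stretch genes its pairs between doses reached only 0.07 to 0.11, against -0.17 to -0.11 for pairs across sets. HS + TSAlow 2 and 3 then correlated by 0.93 over log2 CPM, barely above the 0.91 to 0.92 of HS + TSAlow pairs across sets. Among 40847 genes in neither list and outside the stretches, 1120 were called higher in set 1 (2.74%) and 2312 lower (5.66%), and the median fitted difference was 0.03. Calls were most frequent among genes with few counts. Of genes with up to 1 CPM, 6.58% were called higher and 11.3% lower, and of genes with 1 to 3 CPM 6.18% and 12.6%, while of genes above 100 CPM 0.287% were called higher and 3.85% lower. Medians by exon length lay between -0.08 and 0.05 in 6 length classes.

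The study was concerned with endoplasmic reticulum (ER) stress, and its list of ER stress genes gives the named genes of these libraries. When unfolded proteins build up in the ER, the sensor IRE1 splices the mRNA of the transcription factor BZIP60, and the membrane-bound factors bZIP17 and bZIP28 are cut free by the proteases S1P and S2P. They raise the expression of ER chaperones, among them the HSP70 protein BiP, the lectins calnexin (CNX) and calreticulin (CRT), protein disulfide isomerases (PDI) and co-chaperones. Of the 71 listed genes 52 had counts and 51 were tested. By the rule above, 1 was called higher in set 1 and 1 lower, beside 2.66% and 8.26% of all genes. By library order alone 3 were higher and 11 lower, 5.88% and 21.6% of the list beside 12.6% and 15.8% of all genes. Without HS + TSAlow 2, HS + TSAlow 4 or HS + TSAhigh 2 the lower count was 2, with CNX1.1 added. Without HS + TSAhigh 1 it was 3, with CNX1.1 and BiP2.5 added, and the 1 higher gene was BiP3.2 in place of ERDJ3B.5. The median fitted difference was -0.16 over the list and -0.01 over all genes.

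The gene called lower was bZIP17.2 (C04p02350.1_BnaDAR), which encodes a bZIP17 factor and lies within the C04 stretch (C04, 2273468 to 2275813). It had 0 counts in HS + TSAlow 1, HS + TSAlow 4 and HS + TSAhigh 1. In set 2 it had 2.59 and 5.37 CPM in HS + TSAlow 2 and 3 and 0.86 and 2.60 CPM in HS + TSAhigh 2 and 3, and it had 4.78, 5.62 and 7.99 CPM in pollen. Against the same floor, with both doses pooled, it was at least 84.4-fold lower in set 1. The 3 other bZIP17 copies were present in all 7 libraries, and the 4 copies summed to 40.6, 48.6 and 27.7 CPM in set 1 and to 44.5, 48.1, 39.1 and 44.5 CPM in set 2. The summed bZIP17 level thus overlapped between the sets at the low dose, and HS + TSAhigh 1 was the lowest library.

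The gene called higher was ERDJ3B.5 (C06p28290.1_BnaDAR, C06, 31960461 to 31966403), a copy of the BiP co-chaperone ERDJ3B. It had 4.72, 4.73 and 4.45 CPM in HS + TSAlow 1, HS + TSAlow 4 and HS + TSAhigh 1, against 2.26, 2.63, 0.93 and 0.99 CPM in HS + TSAlow 2, HS + TSAlow 3, HS + TSAhigh 2 and HS + TSAhigh 3. The fitted difference was 1.47 on the log2 scale (SE 0.39), and without HS + TSAhigh 1 it was 0.95, under the 2-fold limit, so that the call rested on that library. In pollen its level was 5.22 to 10.9 CPM. All 5 ERDJ3B copies together summed to 158, 162 and 219 CPM in set 1 and to 211, 203, 174 and 186 CPM in set 2, below set 2 at the low dose and above it at the high dose.

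CNX1.4 (C02p61640.1_BnaDAR), a calnexin gene, lies in the C02 stretch (C02, 60065961 to 60068929) and was not lost. It had 271, 288 and 352 CPM in HS + TSAlow 1, HS + TSAlow 4 and HS + TSAhigh 1, against 443, 532, 322 and 375 CPM in HS + TSAlow 2, HS + TSAlow 3, HS + TSAhigh 2 and HS + TSAhigh 3. The sets were apart at the low dose and overlapped at the high dose, and the fitted difference was -0.47 (SE 0.18). It is one of the genes that kept more than 50% of the set 2 level. CNX1.1, the copy on A02, had 0.11 to 0.46 CPM in the 7 libraries. All 6 calnexin copies summed to 913, 973 and 1050 CPM in set 1 and to 1425, 1469, 970 and 1125 CPM in set 2.

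Among the other chaperones, none of the 6 PDI genes was called between the sets, and 2 were lower by library order, beside 15.8% of all genes. Fitted differences were negative for 5 of the 6 (median -0.40, range -0.62 to 0.23). PDIL2-2/PDI10.2 (C05p03170.1_BnaDAR, C05, 1579822 to 1582693) had the largest, -0.62 (SE 0.14). Its level was 53.2, 59.7 and 90.6 CPM in HS + TSAlow 1, HS + TSAlow 4 and HS + TSAhigh 1, against 96.9, 95.6, 108 and 131 CPM in HS + TSAlow 2, HS + TSAlow 3, HS + TSAhigh 2 and HS + TSAhigh 3. The 6 PDI genes summed to 608, 700 and 775 CPM in set 1 and to 929, 926, 781 and 922 CPM in set 2. The sets were apart at the low dose. At the high dose 775 CPM in HS + TSAhigh 1 lay only just below 781 CPM in HS + TSAhigh 2. The TMM factors of these libraries, 1.03 and 1.00, differ by more than that, so the order there hangs on the scaling.

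BiP genes showed no common direction. Of 8 BiP genes 3 had negative and 5 positive fitted differences (median 0.10). BiP2.4 (C03p24160.1_BnaDAR, C03, 12523340 to 12526177) had 70.5, 81.0 and 120 CPM in HS + TSAlow 1, HS + TSAlow 4 and HS + TSAhigh 1, against 113, 105, 168 and 151 CPM in HS + TSAlow 2, HS + TSAlow 3, HS + TSAhigh 2 and HS + TSAhigh 3, a difference of -0.48 (SE 0.13). The copies of BiP may share reads, and their sum was 1151, 1295 and 1561 CPM in set 1, against 1214, 1340, 1413 and 1357 CPM in set 2. The sums overlapped at the low dose.

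In the remaining families, the members with the largest differences and at least 10 CPM stayed under 2-fold. IRE1a.1, a sensor (A06p33930.1_BnaDAR), differed by -0.44 (SE 0.29) and S1P.1, a protease (A03p09570.1_BnaDAR), by -0.45 (SE 0.16). NAC103.2, a transcription factor (C03p62210.1_BnaDAR), differed by 0.44 (SE 0.25), with 22.1, 20.7 and 46.4 CPM in HS + TSAlow 1, HS + TSAlow 4 and HS + TSAhigh 1 and with 25.3, 19.0, 18.7 and 23.9 CPM in HS + TSAlow 2, HS + TSAlow 3, HS + TSAhigh 2 and HS + TSAhigh 3. Its difference thus came from HS + TSAhigh 1. SDF2.2, a BiP co-chaperone gene (A09p55870.1_BnaDAR), differed by -0.58 (SE 0.22), ECA4.1, a calcium pump gene (A09p66320.1_BnaDAR), by -0.29 (SE 0.15), and P24DELTA5.2, a cargo receptor gene (C08p21160.1_BnaDAR), by -0.59 (SE 0.15). Both cargo receptor genes were lower in set 1 by library order, beside 15.8% of all genes.

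**Figure D5:**
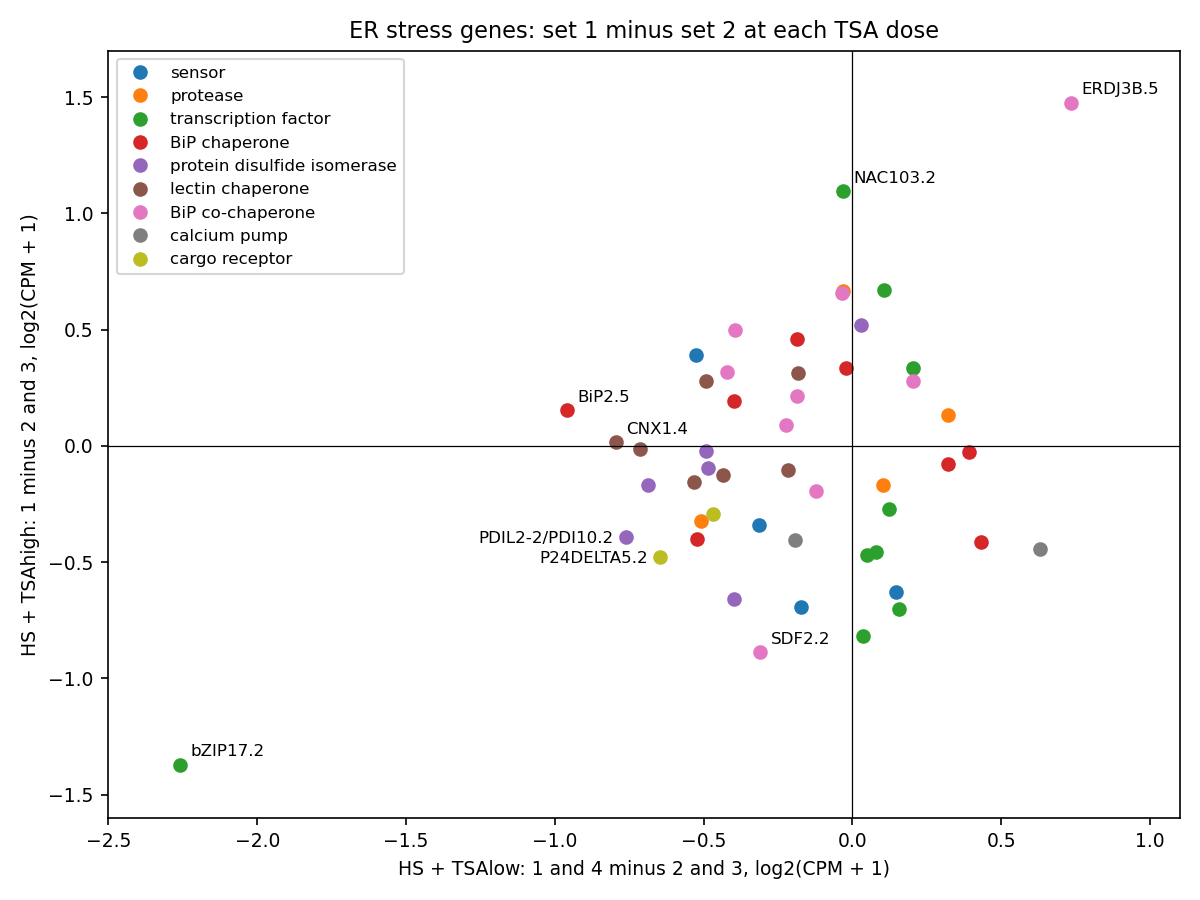
Set 1 minus set 2 in log2(CPM + 1) for the 51 tested ER stress genes, at the low dose (x axis, HS + TSAlow 1 and 4 minus 2 and 3) and at the high dose (y axis, HS + TSAhigh 1 minus 2 and 3). Each point is a gene, coloured by family. The 2 axes share no library, but the sets were chosen from correlations across both doses, which favours agreement between the axes. bZIP17.2 stands apart at -2.26 and -1.37, ERDJ3B.5 at 0.73 and 1.48, and CNX1.4 of the C02 stretch at -0.79 and 0.02.

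The sets also bear on the comparison of TSA doses, since set 1 makes up 2 of 4 HS + TSAlow and 1 of 3 HS + TSAhigh libraries. With the set as a covariate, edgeR's quasi-likelihood test called 3292 genes higher (7.52%) and 3068 lower (7.01%) in HS + TSAhigh than in HS + TSAlow, with p-values adjusted by the Benjamini-Hochberg method to at most 0.05. Without the set term it called 1757 higher (4.02%) and 1469 lower (3.36%), and 3208 of these genes were called in the same direction in both fits. With the replicate number as a block in place of the set, 1155 were higher and 1262 lower. The sets were chosen on these same libraries, so the set term removes spread that was used to define it, and its p-values are descriptive. Within the stretches the fit with the set term called 9 genes higher and 128 lower in HS + TSAhigh. These are 15.6% of the 877 stretch genes, near the 14.5% of all genes. The fit without the set term called 3 and 8, or 1.25% beside 7.37% of all genes.

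Most libraries mattered to the dose counts by more than 1.5 times. With the set term, 1545 genes were higher and 1275 lower in HS + TSAhigh without HS + TSAlow 1, 1881 and 1375 without HS + TSAlow 3, and 1768 and 1599 without HS + TSAhigh 2. Without HS + TSAlow 4 the count of higher genes was 2142, and without HS + TSAhigh 3 it was 2167.

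Of the 51 ER stress genes, 7 were called between the doses by edgeR with the set term (13.7%) and 3 without it (5.88%). These shares are near those of all genes, 14.5% and 7.37%, and say nothing particular of the list. ERDJ3B.4 (C04p30630.1_BnaDAR, C04, 31514856 to 31517119) had 25.7 CPM in HS + TSAhigh 1 and 25.5 and 34.3 CPM in HS + TSAhigh 2 and 3, against 13.6, 15.1, 15.4 and 14.3 CPM in HS + TSAlow 1 to 4. It was higher in HS + TSAhigh by 0.94 on the log2 scale with the set term (SE 0.17, adjusted p = 0.0087), by 0.97 without it (adjusted p = 0.019) and by 0.94 with the block (adjusted p = 0.049). PDIL2-2/PDI10.1 (A10p03460.1_BnaDAR, A10, 1704988 to 1707938) was higher by 0.81 with the set term (SE 0.15, adjusted p = 0.0090), by 0.92 without it (adjusted p = 0.039) and by 0.87 with the block (adjusted p = 0.035). BiP2.2 (A03p20560.1_BnaDAR, A03, 9127737 to 9130540) was higher by 0.61 with the set term (adjusted p = 0.022) and by 0.62 without it (adjusted p = 0.043), and did not pass with the block (adjusted p = 0.096). The other 4 genes passed only with the set term. They were BiP2.4, higher by 0.60 (adjusted p = 0.014), and SDF2.2, P24DELTA5.2 and CRT1/CRT1A.1, with log2 differences of -0.92, -0.72 and -0.47 (adjusted p = 0.023, 0.013 and 0.046). For 6 of the 7 genes, all but P24DELTA5.2, HS + TSAhigh and HS + TSAlow libraries did not overlap. The dose test picked these genes on the same libraries, so this order is no further support. Its share over all genes was not counted. The adjusted p of these 4 genes was 0.0545 to 0.119 with the block and 0.070 to 0.137 with neither term.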

How the data were processed

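The authors aligned reads of SMART-seq v4 and Nextera XT libraries, which do not mark the strand, by STAR against the genome of Darmor-bzh, version 10, and counted them over annotated exons with featureCounts. Versions in the processing notes of the submitters are 2.7.10a for STAR and 1.5.2 for Subread. The deposited raw counts per gene were used. Of 61170 rows, 1712 exact repeats were removed and 59458 genes remained. Between 65.8 and 75.2% of nonzero counts were even, as pairs mostly entered with both mates, so intervals and floors cover counting error only. The authors' normalized values, fold changes and p-values from their own comparisons were not used.

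Genes were kept by filterByExpr within the 7 HS + TSA libraries (minimum count 10, minimum total 15), scaled by TMM over all 10 libraries and fitted with edgeR 4.0.16 (R 4.3.3, limma 3.58.1) on the 7 libraries, with set and TSA dose as terms and robust dispersions. The SE was taken from the log2 difference and the quasi-likelihood F. The fits were tested on simulated data. DESeq2 1.42.0 and limma-voom were alternatives, with other scalings, filters, thresholds and samples. Figures were made with matplotlib 3.10.9.

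The members of the sets, the gene lists and the alternatives were chosen with earlier results of these data known. Chromosome stretches, the library order without a fold and the fits without stretch genes were chosen after seeing the gene profiles. Genes were named as the 2 called IDs each way with the largest difference and at least 10 CPM, the ER stress genes called between sets or doses, and in each ER stress family the member with the largest difference and at least 10 CPM. CNX1.1 and the sums over copies fall outside this rule.

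The labels give both doses replicate numbers. Deviations of same-numbered HS + TSAhigh and HS + TSAlow libraries correlated by 0.35, 0.14 and 0.21, which were taken as pairs, although this pairing rests on these correlations alone. Libraries 2 and 3 correlated as well with the other number of their set (0.19 and 0.20), so that number and set cannot be told apart. HS + TSAlow 4 has no partner. Replicates are biological per the labels, and were counted as labelled. HS + TSAlow 1 and 4 differed by 10.9 times the counting variance, the least of all pairs within a dose (36.6 to 125 in the others), which does not show whether they came from separate cultures.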

Additional observations from a re-analysis of the deposited data

Results flagged for a closer look

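For 2 of the 19 named genes, the set 1 libraries lay on opposite sides of the set 2 libraries at the 2 doses, with no overlap at either. BiP2.2 had 149 and 158 CPM in HS + TSAlow 1 and 4, against 204 and 201 CPM in HS + TSAlow 2 and 3, but 299 CPM in HS + TSAhigh 1, against 262 and 261 CPM in HS + TSAhigh 2 and 3. Its set differences were -0.40 at the low dose and 0.19 at the high dose on the log2(CPM + 1) scale, which are -0.59 apart. CRT1/CRT1A.1 had 486 and 513 CPM in HS + TSAlow 1 and 4, against 588 and 545 CPM in HS + TSAlow 2 and 3, but 443 CPM in HS + TSAhigh 1, against 352 and 361 CPM in HS + TSAhigh 2 and 3. Its differences were -0.18 and 0.31, which are -0.49 apart. Whether the set difference depends on the dose was not tested. Among 33 values read in the 4 HS + TSAlow libraries, 0 had a library far from the other 3 by Dixon's criterion.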

How the results depend on the processing

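Counts of genes called between the sets kept within 1.5 times under other scalings, other fitting tools, a prior count of 2, pollen in the fit, halved counts and the removal of embryogenic-rich, pollen-rich or stretch genes. With a mean of at least 10 CPM, 110 genes were higher and 785 lower in set 1, and 0 ER stress genes were called either way. At a 1.5-fold limit, 2799 genes were higher and 4 ER stress genes lower. At a limit of 2 log2 units, 270 were higher and 1603 lower, and 0 ER stress genes were higher. With no dose term, and with no overlap asked over all 7 libraries together, 755 genes were higher. In HS + TSAlow alone 0 ER stress genes were higher, and without the stretch genes 0 were lower. The filter over HS + TSAlow alone dropped genes with 0 counts in libraries 1 and 4, bZIP17.2 among them. By library order alone the counts were 5532 and 6910, and 3 and 11 ER stress genes. Leaving out single libraries gave 1342 to 2498 higher and 3926 to 5622 lower genes, and among ER stress genes 1 higher each time, ERDJ3B.5 except without HS + TSAhigh 1, where it was BiP3.2, and 1 to 3 lower.

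Between the doses, DESeq2 called 5002 genes higher and 4757 lower in HS + TSAhigh, and 2078 were higher with a mean of at least 10 CPM. The count was 1757 and 1469 with no set term, and 1155 and 1262 with the replicate block. Leaving out single libraries gave 1545 to 4153 higher and 1275 to 4139 lower genes. The set term is nested in the replicate numbers and could not be blocked.

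Of 187 values for named genes, 36 moved by at least the spread within sets. Signs changed only for NAC103.2 (2 values) and CRT1/CRT1A.1 (5 values), and neither was called. Library totals alone moved the median of all genes by 0.09 log2 units, and DESeq2 size factors by -0.05. HS + TSAhigh gives set 1 a single library, and no spread is known for it. Depth limits genes under 3 CPM, where calls were most frequent.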
